A study of Mus musculus with 10 samples.

Results

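The 10 libraries of macrophages sorted from regrown melanomas were divided into 2 sets of 5 that did not follow the genotype of the host. Control libraries 1, 2 and 5 and knockout libraries 1 and 3 had high levels of the feedback genes Dusp6 and Spry2 and low levels of the MHC class I gene H2-K1, and are called Dusp-high here. Control libraries 3 and 4 and knockout libraries 2, 4 and 5 had the opposite levels and are called Dusp-low. Each set thus held 5 of the 10 libraries, 3 and 2 of them from control mice. The sets were chosen from expression in these same libraries, so every gene difference between them is given as a description, without a test.

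All 10 libraries came from male mice whose tumour tissue, described as resistant or rebound, carried a Braf-mutant melanoma per the series title, and all mice received inhibitors of Braf and Mek each day until the tissue was taken. The 5 control samples were Ccr2RFP/+, with 1 Ccr2 allele replaced by a red fluorescent reporter, and the 5 knockout ones were Ccr2RFP/RFP, with both alleles replaced, so the reporter allele was present in both groups. Ccr2 is the chemokine receptor by which inflammatory monocytes leave the marrow. Cells positive for F4/80, the product of Adgre1, were sorted straight into lysis reagent and profiled by polyadenylated RNA sequencing. The labels give no age, no interval since the last dose, no hour of collection, and do not say that each library came from a different animal. Any p-value below therefore measures the spread between these samples, which may be technical.

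In the RAS-RAF-MEK-ERK cascade, active ERK switches on genes whose products then restrain it, among them the ERK phosphatase Dusp6 and the adaptor proteins of the Sprouty (Spry) and Spred families. Transcripts of these feedback genes are widely used as a readout of ERK output and fall when MEK is inhibited in tumour cells. MHC class I molecules, built from a heavy chain such as H2-K1 and the light chain B2m, show peptides to CD8 T cells, and interferon gamma raises them together with the peptide transporter Tap1, the immunoproteasome and the transactivator Nlrc5. In macrophages interferon gamma also induces large families of GTPases (Gbp and Irg) that attack pathogens inside the cell.

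The genotype labels held in both sets. Ccr2 stood at 59.0, 89.6 and 177 CPM (counts scaled to the library total) in the 3 Dusp-high control libraries and at 142 and 130 CPM in the 2 Dusp-low ones, against 3.23 and 4.33 CPM in the Dusp-high knockout libraries and 6.28, 3.64 and 6.13 CPM in the Dusp-low ones. Every knockout library lay below every control library, and the fitted log2 change of Dusp-high over Dusp-low libraries was -0.41 ± 0.28 (standard error of the fit). F4/80 itself, Adgre1, ran from 1562 to 1838 CPM in Dusp-high and from 1881 to 2020 CPM in Dusp-low libraries. The summed level of 18 core macrophage genes, with Csf1r, C1qa and Cd68 among them, overlapped, at 35150 to 40219 and 33434 to 43751 CPM. Libraries held between 34639808 and 43360206 counts in genes.

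Some libraries stood closer to each other than the rest. Across genes, the median chi-square of 2 libraries' counts was 2.66 for control libraries 3 and 4 and 2.75 for control libraries 1 and 2, against 0.455 for sampling noise alone and 5.71 or more for every other pair. The nearest library was one of the same set for 8 of 10 libraries and one of the same genotype for 7 of 10. The exceptions to the first count were knockout library 1, nearest to control library 3, and knockout library 3, nearest to knockout library 4. That count comes from the expression values in which the sets were seen, so it is no separate support for them. Median chi-squares ran from 2.75 to 23.5 within the Dusp-high set and from 2.66 to 14.9 within the Dusp-low set. Between sets they ran from 8.14 to 23.5. The first principal component of log2 CPM held 36.1% of the variance and did not divide the sets cleanly, since Dusp-high knockout library 1 lay at 5.79 and Dusp-low control library 4 at -3.23. Knockout libraries 4 and 5 lay at the far end of it, at 57.5 and 63.6, and carried the lowest levels of Fos and other immediate early genes.

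Of 14374 genes tested, 288 were counted as higher in Dusp-high libraries (2.0%) and 86 as lower (0.598%). A gene was counted where the change, fitted with genotype as a covariate, was at least 2-fold and the 5 libraries of one set all lay above the 5 of the other. With the size requirement dropped, 495 genes were higher without overlap (3.44%) and 317 lower (2.21%). The median log2 change over all tested genes was 0.00 to 2 decimals. Genes counted as higher often rested on few reads, with a median level of 3.73 CPM and 162 of 288 below 5 CPM, while those counted as lower had a median of 11.2 CPM, beside 18.4 CPM over all tested genes. With 1 library left out, 605 genes were counted as higher without knockout library 1 and 494 without control library 4, and 144 as lower without knockout library 4. Fewer libraries then had to stay apart, which by itself lets the counts rise. All 288 and all 86 changed in the same direction within control and within knockout libraries, which the requirement of no overlap already fixes. Their median log2 differences were 1.54 in control and 1.88 in knockout libraries for genes counted as higher, and -1.03 and -1.73 for genes counted as lower.

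**Figure D1:**
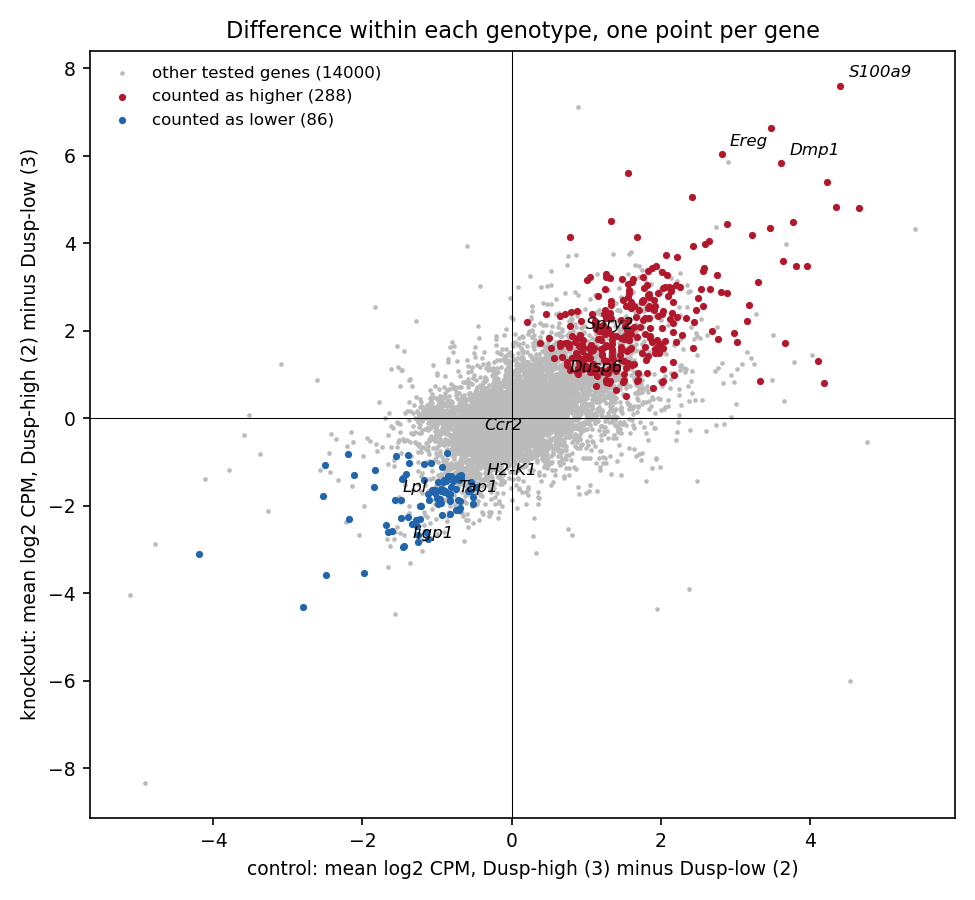
Each point is a tested gene. The horizontal axis gives its mean log2 CPM in Dusp-high minus Dusp-low control libraries, the vertical axis the same in knockout libraries, red marks the 288 genes counted as higher and blue the 86 counted as lower. Counted genes sit in the upper right and lower left by construction, and Ccr2 lies near the centre.

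Between knockout and control libraries 203 genes passed an adjusted p of 0.05 in edgeR's quasi-likelihood test (1.41% of genes, 125 higher and 78 lower in knockout). With the set as a covariate the same test called 499 genes, 262 higher and 237 lower in knockout, and all 203 were among them. The sets were seen in these same values, so p-values with that covariate may be too small. The 499 are given as a description. The 203 became 77, 62, 101 and 77 without control library 1, 2, 3 or 4, and became 107 and 92 without knockout library 4 or 5. The 203 became 8 with 3 pairs of libraries, called close pairs here, summed as 1 library each (control 1 with 2, control 3 with 4, knockout 4 with 5). Knockout 4 with 5 was the loosest, at a median chi-square of 6.54, above the 5.71 of control library 3 with knockout library 2. Whether the difference between sets itself differed between genotypes was tested by an interaction term. By adjusted p, edgeR called 0 of 14374 genes (0%), while DESeq2 called 9. In edgeR's test 710 genes had an unadjusted p under 0.05, close to the number that chance alone gives at that threshold. That model also includes the set, so its p-values may be too small as well. Without knockout library 2 edgeR called 7, and without a filter on low counts 45. With 2 or 3 libraries in each cell of that design, a call of 0 does not show that the genotypes responded alike.

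Feedback genes of the ERK pathway were higher in Dusp-high libraries. Of 24 genes listed as ERK feedback or ERK-driven, 22 passed the filter on low counts (Spry3 and Epha4 did not), and all 22 had a fitted change above 0, with a median log2 change of 1.13 (0.90 in control and 1.26 in knockout libraries). Within each genotype taken alone 13 of the 22 did not overlap, beside 6.73% of all genes. Of the 22, 8 did not overlap between sets, and 7 of those were at least 2-fold higher. The sets were drawn with these genes in view, so nothing is read from that count beside the 3.44% of all genes.

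Dusp6, the phosphatase that dephosphorylates ERK, stood at 202, 217 and 199 CPM in Dusp-high control libraries and 215 and 227 CPM in Dusp-high knockout libraries. In Dusp-low libraries it stood at 138 and 121 CPM in control and 97.8, 146 and 125 CPM in knockout. The Dusp-high libraries lay within a narrow band of each other (212 ± 11.2 CPM, SD, n = 5) and all above the highest Dusp-low one (126 ± 18.4 CPM), a log2 change of 0.76 ± 0.11. Spry2, a Sprouty inhibitor of receptor tyrosine kinase signalling, ran at 15.8, 11.4, 13.4, 11 and 16 CPM in control libraries 1, 2 and 5 and knockout libraries 1 and 3, and at 7.0, 7.44, 6.64, 2.40 and 3.05 CPM in control libraries 3 and 4 and knockout libraries 2, 4 and 5. Its log2 change was 1.32 ± 0.29, and the lowest Dusp-low values were those of knockout libraries 4 and 5.

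The other tested Sproutys differed by more. Spry4 averaged 11.3 ± 4.72 CPM in Dusp-high and 1.76 ± 0.85 CPM in Dusp-low libraries (SD, n = 5 each), a log2 change of 2.63 ± 0.34. Spry1 averaged 14.6 ± 4.0 against 4.69 ± 1.54 CPM, a log2 change of 1.54 ± 0.25. Errfi1, the cytoplasmic inhibitor of EGF receptor kinases, stood at 242, 160 and 127 CPM in Dusp-high control and 175 and 288 CPM in Dusp-high knockout libraries, against 61.0 and 59.3 CPM in Dusp-low control and 45.8, 31.1 and 28.0 CPM in Dusp-low knockout libraries. The nearest Errfi1 values of the sets were 127 and 61.0 CPM, and its log2 change was 2.14 ± 0.28.

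The ETS factor Etv4 (log2 change 2.55 ± 0.40), the ephrin receptor Epha2 (1.65 ± 0.24) and Phlda1 (1.18 ± 0.29) completed the counted members, Etv4 at 14.4 CPM or less. A further 7 members had fitted changes of more than 2-fold but overlapped between sets, namely the IL-33 receptor Il1rl1 (2.55), the AP-1 subunit Fosl1 (2.54), Etv1 (1.22), Dusp5 (1.14), Spred2 (1.12), Rnd3 (1.10) and Dusp4 (1.04). At the other end Etv5 (0.38), Dusp7 (0.26), Spred3 (0.24), cyclin D1 Ccnd1 (0.19) and Sh2b3 (0.12) overlapped broadly, and Etv5 and Dusp7 were lower in Dusp-high than in Dusp-low knockout libraries (-0.05 and -0.08). Members of the list thus differed widely in size of change. Without knockout libraries 4 and 5 its median was 0.83, and without control libraries 1 and 2 it was 0.96, both settings chosen after the data had been seen.

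**Figure D2:**
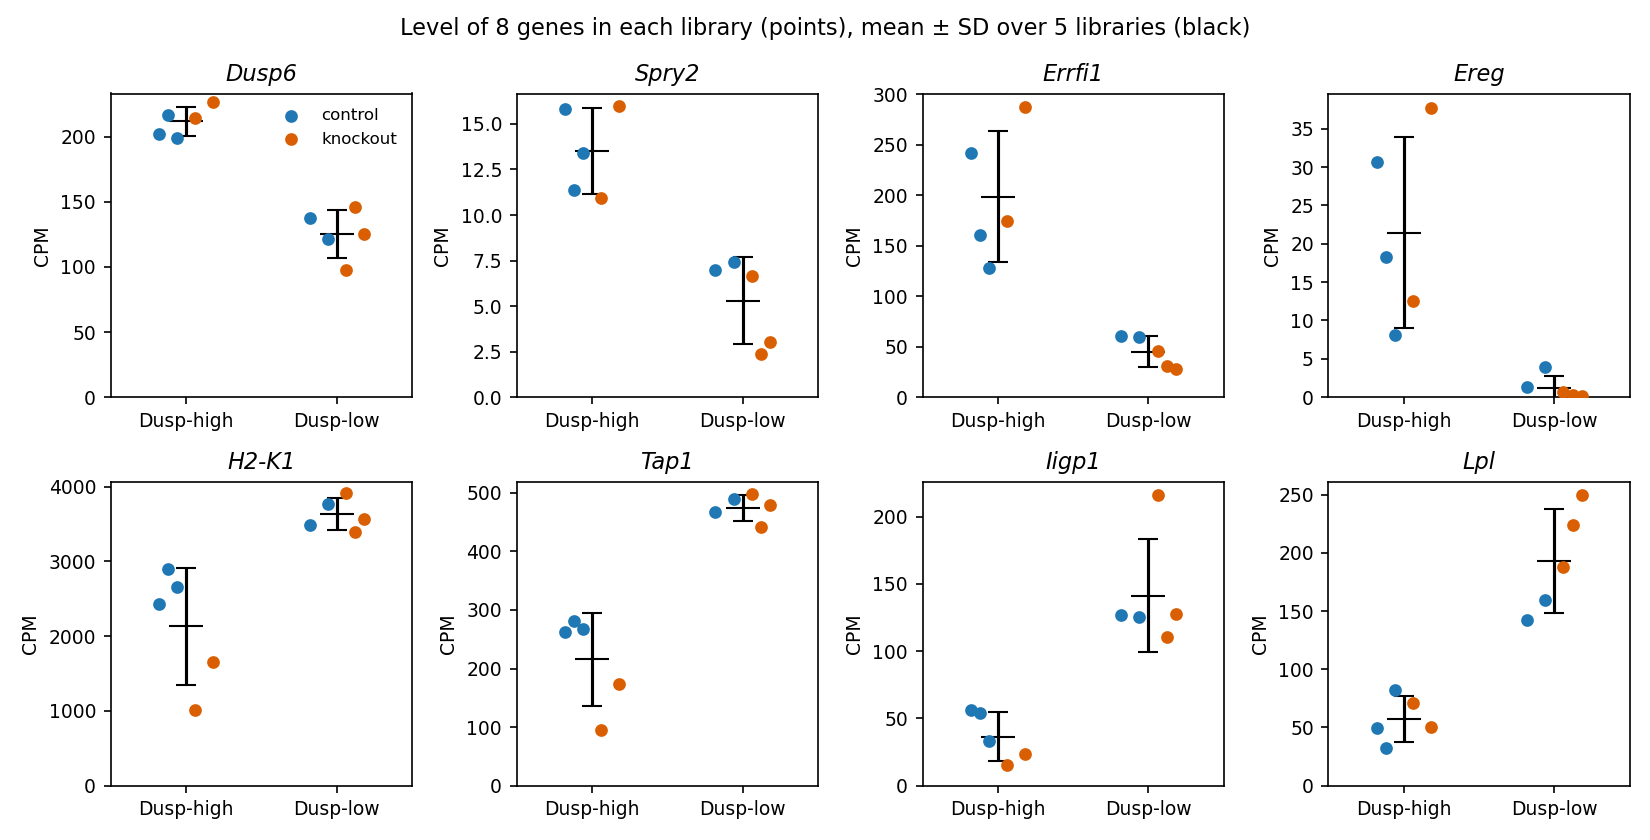
Level in CPM of 8 genes in each library, control in blue and knockout in orange, with the mean ± SD of each set of 5 in black. In every panel the 5 libraries of one set lie above the 5 of the other, from Dusp6 at 199 to 227 against 97.8 to 146 CPM to H2-K1 at 1006 to 2892 against 3394 to 3915 CPM.

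Promoters of 2 counted feedback genes held a cyclic AMP response element, and the stretches are shown because they were the only letters searched for that any member of the list carried. The search covered 250 bases before to 50 bases after each RefSeq start site on GRCm38.p6 (the counts were made on GRCm39), on both strands, for TGACGTCA (CRE), TGANTCA (AP-1), CCGGAAGT (ETS), GAAA followed after 2 free bases by GAAA (ISRE, the interferon-stimulated response element) and TTCNNNGAA (GAS, the gamma-activated sequence). The ISRE and GAS letters can share bases. Of 16 tested list genes with a window, 2 held CRE (12.5%), beside 3.5% of the 10607 tested genes with a window and 2.03% of all 27025 genes in the table, and none held AP-1, ETS, ISRE or GAS. The stretches run 5′ to 3′ on the gene's strand with the match in capitals, Errfi1 at chr4:150854984-150855061 on the plus strand and Epha2 at chr4:141301153-141301220 on the plus strand.
Errfi1: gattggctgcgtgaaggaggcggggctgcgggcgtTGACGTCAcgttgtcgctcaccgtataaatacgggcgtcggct
Epha2: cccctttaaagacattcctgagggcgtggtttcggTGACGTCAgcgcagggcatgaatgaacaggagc
A match describes letters, not a bound site, and its part in the levels was not tested.

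Immediate early genes, the first transcripts made after ERK and stress kinases are activated, resembled the feedback genes only in part. All 22 listed had a fitted change above 0, with a median of 0.60, and 3 did not overlap between sets (3.44% of all genes were higher without overlap). Those were Egr3 (log2 change 2.27 ± 0.45, up to 12.1 CPM), Egr1 (1.44 ± 0.37) and Jun (0.97 ± 0.30). Jun stood at 982, 1063, 1234, 1003 and 1006 CPM in the Dusp-high libraries and at 827, 738, 635, 214 and 246 CPM in the Dusp-low ones, where the last 2 values are knockout libraries 4 and 5. Fos followed a different pattern, at 1156, 1298, 2865, 1041 and 1259 CPM against 1668, 1800, 1495, 390 and 337 CPM. Only knockout libraries 4 and 5 lay below the Dusp-high range of Fos, and control library 5 lay above all others. Over the list, the median was 0.28 in control and 1.18 in knockout libraries, and over both genotypes it was 0.18 once knockout libraries 4 and 5 were left out. The stress phosphatase Dusp1, induced by the same cues as Fos, overlapped likewise (788 to 2033 against 237 to 1200 CPM).

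Ligands and proteases that act on neighbouring cells were among the genes counted as higher. Of 32 tested genes for growth factors and matrix enzymes, 7 were counted, beside 2.0% of all genes, and none was counted as lower. They were the EGF receptor ligands Ereg, Areg and Hbegf, the cytokine Lif, the metalloprotease Mmp19, its inhibitor Timp3 and the urokinase receptor Plaur. Ereg, which encodes epiregulin, stood at 30.7, 18.3 and 8.11 CPM in Dusp-high control and 12.5 and 37.7 CPM in Dusp-high knockout libraries, against 1.37 and 3.87 CPM in Dusp-low control and 0.65, 0.29 and 0.10 CPM in Dusp-low knockout libraries. Its log2 change was 4.32 ± 0.77. Areg differed by 2.44 ± 0.51 and Hbegf by 1.60 ± 0.37 on the log2 scale. Plaur averaged 210 ± 50.6 CPM in Dusp-high and 82.5 ± 23.3 CPM in Dusp-low libraries. Hbegf only just cleared the rule, with 7.89 CPM in control library 5 against 7.72 CPM in control library 4. The growth factors Igf1, Vegfa, Pdgfb and Tgfb1 lay within 0.31 of 0 on the log2 scale.

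Transcripts of genes for MHC class I antigen presentation were mostly lower in Dusp-high libraries. Of 27 listed genes 26 were tested (H2-T9 was not), 25 had a fitted change below 0, and the median log2 change was -0.77 (-0.44 in control and -1.17 in knockout libraries). No overlap between sets was seen for 17 of the 26, beside 2.21% of all genes, and 5 were counted as at least 2-fold lower. The sets were drawn with class I genes in view, so these counts are a description. Reads that map to several places were listed as 0 in the deposited counts, so the levels of near-identical class I genes are uncertain.

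H2-K1, a classical class I heavy chain, stood at 2428, 2892 and 2662 CPM in Dusp-high control and 1006 and 1658 CPM in Dusp-high knockout libraries. In Dusp-low libraries it stood at 3491 and 3773 CPM in control and 3915, 3394 and 3565 CPM in knockout. The Dusp-low libraries lay close together (3628 ± 213 CPM, SD, n = 5) while the Dusp-high ones spread widely (2129 ± 781 CPM), with both knockout libraries below the control ones. Its log2 change was -0.95 ± 0.21. The light chain B2m was also lower on average (-0.62 ± 0.18) but overlapped, because Dusp-low knockout library 4 held 2390 CPM, less than 2 Dusp-high control libraries.

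Loading and processing genes followed the heavy chains. Tap1, a subunit of the peptide pump of the endoplasmic reticulum, stood at 263, 281, 267, 94.2 and 173 CPM in Dusp-high libraries and at 467, 489, 498, 441 and 479 CPM in Dusp-low libraries, a log2 change of -1.32 ± 0.22. No library came between 281 and 441 CPM. Nlrc5, the transactivator of class I genes, averaged 51.7 ± 15.4 against 106 ± 15.9 CPM (-1.19 ± 0.13). H2-Q4, H2-T10 and H2-T22 were the other counted members, at -1.26, -1.27 and -1.08. The immunoproteasome subunits Psmb8, Psmb9 and Psmb10 (-0.82, -1.0 and -0.65), Tap2, Tapbp, Psme1, Psme2 and Erap1 did not overlap either but changed less. The general chaperones Calr (-0.28) and Canx (-0.12) overlapped, and H2-Q10 was the 1 member above 0 (1.02, at 2.15 CPM or less).

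MHC class II, which shows peptides to CD4 T cells, gave a looser picture. Of 16 tested genes 1, the regulator Rfx5 (-0.38 ± 0.09), was lower without overlap, beside 2.21% of all genes, and the list median was -0.40. Cd74, the invariant chain, ran at 3762, 3811, 2333, 242 and 634 CPM in Dusp-high and at 4003, 3949, 2627, 1953 and 1247 CPM in Dusp-low libraries. The 2 lowest values were Dusp-high knockout libraries 1 and 3, while the control libraries did not overlap, with 3811 CPM in the highest Dusp-high and 3949 CPM in the lowest Dusp-low one. The log2 difference of Cd74 was -0.30 in control and -2.24 in knockout libraries, and the interaction term did not pass for it (edgeR adjusted p = 0.97). Ciita, the class II transactivator, also overlapped, with a fitted change of -1.73 ± 0.32.

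Interferon-inducible genes were lower in Dusp-high libraries along with class I. Of 23 tested interferon gamma targets, 10 were lower without overlap and 9 of them at least 2-fold, beside 2.21% and 0.598% of all genes. The median log2 change of the list was -1.0. The counted genes were the immunity-related GTPases Iigp1, Tgtp2, Igtp, Irgm1, Irgm2 and Ifi47 and the guanylate-binding proteins Gbp2, Gbp4 and Gbp5. Iigp1 stood at 56.0, 54.3, 33.0, 15.4 and 23.4 CPM in Dusp-high libraries and at 127, 125, 216, 111 and 128 CPM in Dusp-low libraries, a log2 change of -2.18 ± 0.35. No library lay between 56.0 and 111 CPM, and both Dusp-high knockout libraries were below all others. The factors Irf8 (-0.61 ± 0.16) and Irf1 (-0.59 ± 0.14) changed less, Irf1 with overlap, and the chemokines Cxcl9 and Cxcl10 overlapped. Nos2, a target that many other cues also induce, was at 0.07 ± 0.68.

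Genes of the type I interferon response had as low a median, -1.10 over 33 tested genes, all 33 below 0, but most overlapped between the sets. Only 1 of the 33 was lower without overlap between the pooled sets, beside 2.21% of all genes. Within each genotype taken alone, 29 of the 33 did not overlap, beside 5.32% of all genes. Ifit2 shows the form, at 129, 154 and 106 CPM against 259 and 264 CPM in control, and 50.7 and 54.1 CPM against 256, 90.5 and 209 CPM in knockout libraries. Dusp-low knockout library 4 lay below the Dusp-high control libraries for Ifit2, so the pooled sets overlapped although each genotype was split. The median was -0.65 in control and -1.47 in knockout libraries. Leaving out knockout libraries 4 and 5 gave -1.11.

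The interferon response element was common in the promoters of genes counted as lower, and the stretches of 4 of them are shown because H2-T22 is a counted class I gene and the others are counted interferon gamma targets. ISRE letters were found in 11 of 57 genes counted as lower with a window (19.3%), in 4 of 198 counted as higher (2.02%) and in 4.05% of tested genes (3.44% of all 32851 windows in the table). They stood in 5 of 21 class I genes and in 11 of 17 interferon gamma targets. GAS letters stood in 10 of the 57 (17.5%), 15 of the 198 (7.58%) and 8.25% of tested genes. AP-1 letters stood in 8 of the 57 (14.0%), 23 of the 198 (11.6%) and 6.49% of tested genes. CRE letters stood in 0 of the 57, 7 of the 198 (3.54%) and 3.5% of tested genes, and ETS letters in 0 of the 57, 2 of the 198 (1.01%) and 8.88% of tested genes. The windows of H2-K1 and Tap1 held none of the letters searched. Capitals mark the ISRE, on the opposite strand in H2-T22 (chr17:36042889-36042968, minus strand) and Gbp2 (chr3:142620569-142620648, plus strand), on the gene's strand in Igtp (chr11:58199487-58199555, plus strand), and as 2 overlapping matches in Irgm1 (chr11:48871421-48871485, minus strand).
H2-T22: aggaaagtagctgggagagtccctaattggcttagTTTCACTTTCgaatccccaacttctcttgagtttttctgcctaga
Gbp2: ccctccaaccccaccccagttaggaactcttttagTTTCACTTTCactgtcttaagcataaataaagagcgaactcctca
Igtp: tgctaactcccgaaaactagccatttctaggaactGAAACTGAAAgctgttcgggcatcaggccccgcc
Irgm1: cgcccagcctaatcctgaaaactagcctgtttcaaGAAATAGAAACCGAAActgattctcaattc
Beside these letters, Gbp2 stood at 132 ± 45.9 CPM in Dusp-high and 287 ± 47.1 CPM in Dusp-low libraries (log2 change -1.29 ± 0.21), Irgm1 at 70.2 ± 25.6 and 140 ± 26 CPM (-1.20 ± 0.18), and H2-T22 at 144 ± 52.4 and 268 ± 47.5 CPM (-1.08 ± 0.19). Igtp stood at 54.0 ± 20.3 and 124 ± 26.4 CPM, a log2 change of -1.39.

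**Figure D3:**
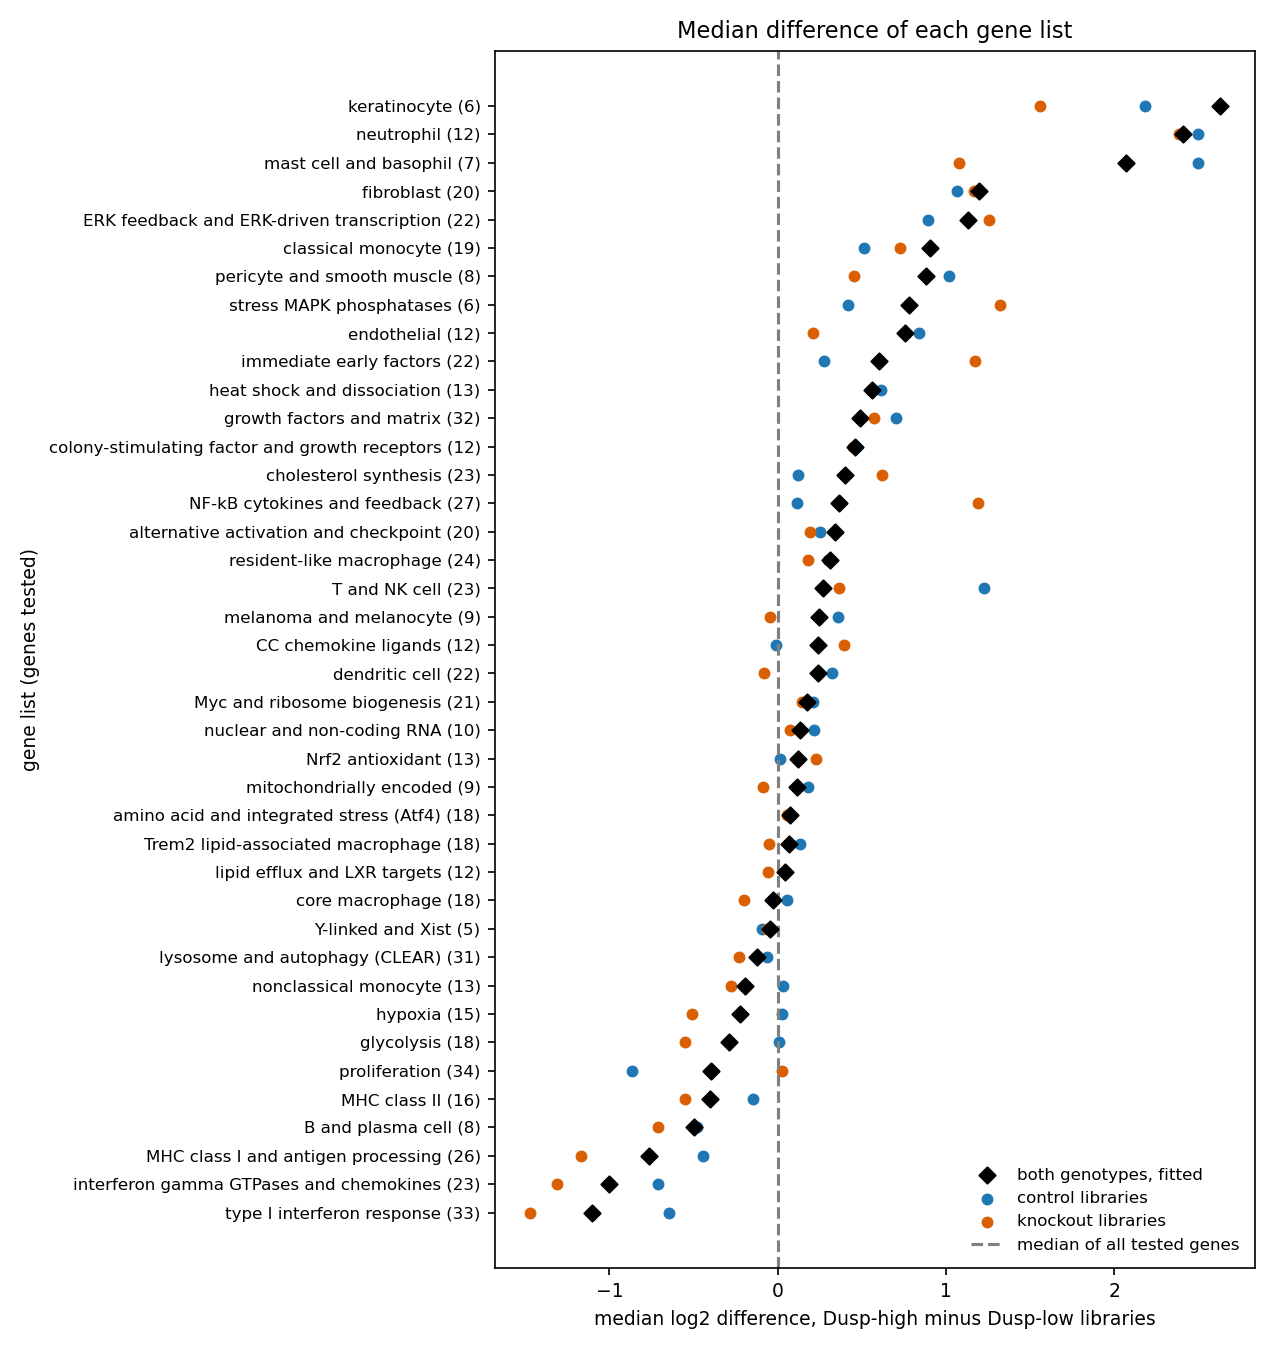
Median log2 difference of Dusp-high minus Dusp-low libraries for each gene list with 5 or more tested genes (number in brackets), fitted over both genotypes (black), in control libraries (blue) and in knockout libraries (orange). The glucocorticoid and clock lists, added after the values were seen, are not shown. The type I interferon, interferon gamma and class I lists sit lowest, at -1.10, -1.0 and -0.77, while ERK feedback sits at 1.13 and markers of scarce cell types reach 2.63.

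The largest changes were not all in these programmes. Besides S100a9, S100a8 and Ereg, the genes with the largest higher change at a mean of 5 CPM or more were the matrix phosphoprotein Dmp1, the hyaluronan-degrading Cemip, the repressor Bcl6b, the VEGF receptor ligand Pgf, the cyclic GMP-dependent kinase Prkg2, the retinoic acid binder Crabp1, Hdc, which makes histamine, Spry4 and Lif. Dmp1 stood at 387, 245 and 34.2 CPM in Dusp-high control and 94.7 and 112 CPM in Dusp-high knockout libraries, against 15.1 and 9.64 CPM and 1.16, 4.18 and 1.12 CPM in the Dusp-low ones (log2 change 4.84 ± 0.67). Control libraries 1 and 2 were highest for Dmp1, Pgf and Prkg2, while knockout library 3 was highest for Cemip and Crabp1. Without that library Cemip changed by 2.35 and Crabp1 by 1.74, against 3.63 and 2.74 with it.

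On the lower side, the largest changes beyond Iigp1, Tgtp2 and Gbp4 were in the protease inhibitors Serpina3f (-2.26 ± 0.41) and Serpina3g (-1.95 ± 0.34), Gbp6 (-2.12 ± 0.33), the non-muscle myosin Myh10 (-2.13 ± 0.27), the endosomal receptor Tlr12, the SLAM receptor Slamf8, Calhm6, Sectm1a and lipoprotein lipase Lpl. Serpina3, Gbp and Tgtp genes lie in families of near-identical copies, so which copy changed is uncertain. Lpl, which frees fatty acids from lipoproteins, stood at 49.8, 32.0, 82.1, 71.1 and 50.4 CPM in Dusp-high and at 142, 159, 188, 224 and 250 CPM in Dusp-low libraries (-1.66 ± 0.24). Unlike the interferon genes, Lpl was not lowest in the 2 Dusp-high knockout libraries.

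**Figure D4:**
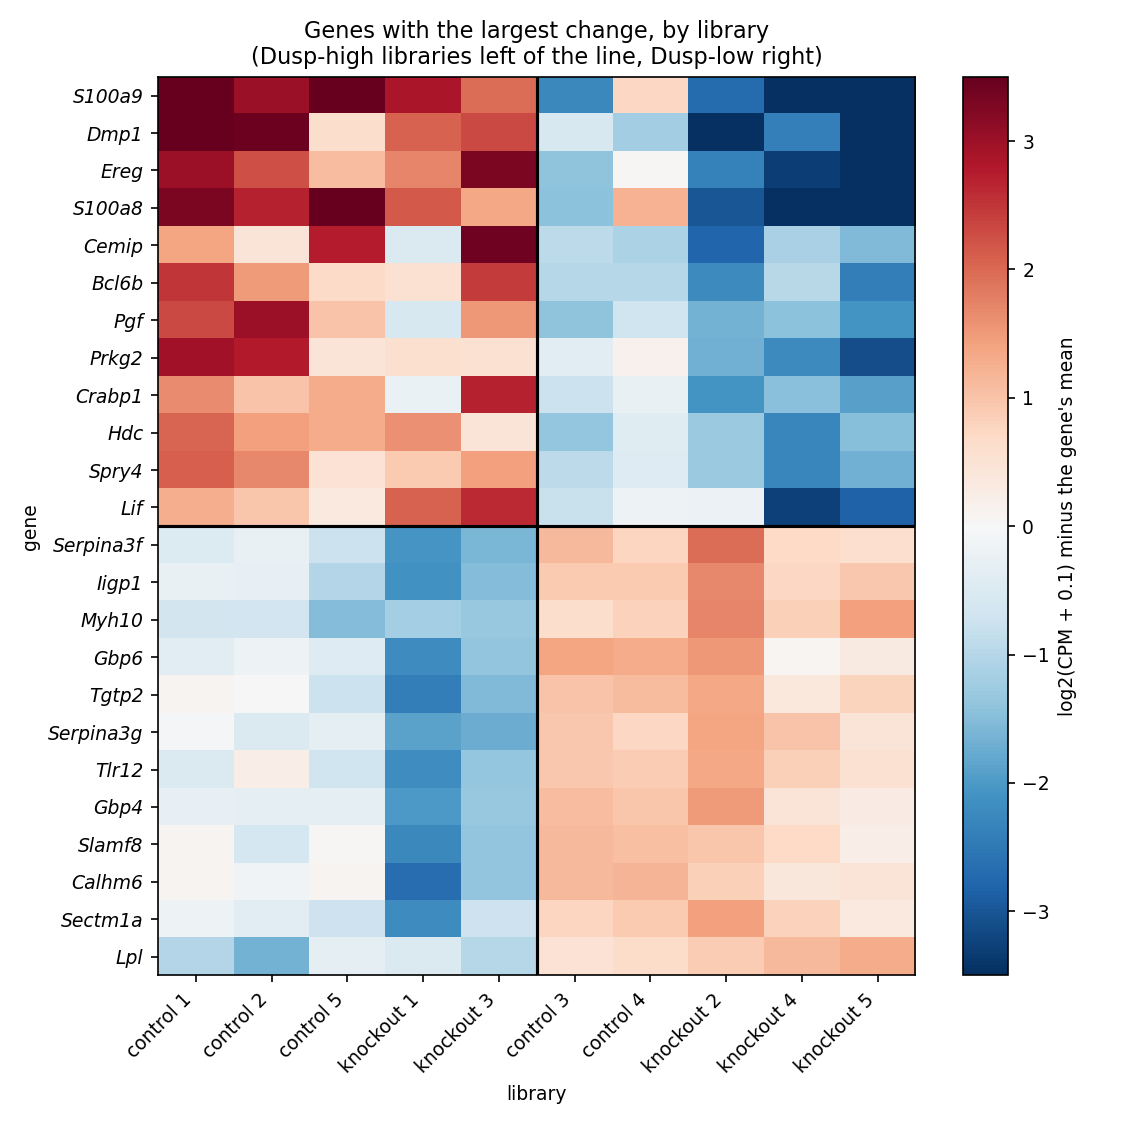
Log2 (CPM + 0.1) of the 12 genes with the largest higher change and the 12 with the largest lower change, each minus its mean over 10 libraries, by library. Dusp-high libraries stand left of the vertical line. Gbp6, Serpina3f and Iigp1 are lowest in knockout libraries 1 and 3, and S100a9 and Ereg in knockout libraries 4 and 5.

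Macrophage receptors differed in both directions. Among 18 core macrophage genes the Fc receptor Fcgr3 and the efferocytosis receptor Mertk were among the 3 higher without overlap (3.44% of all genes) and Adgre1 was the 1 lower (2.21% of all genes), with a list median of -0.03. Fcgr3 ran at 1420, 1540, 998, 1253 and 1468 CPM against 680, 694, 798, 982 and 759 CPM (log2 change 0.81 ± 0.14). The IL-4 receptor chain Il4ra was counted as higher, at 1326, 1357 and 863 CPM in Dusp-high control and 1563 and 1010 CPM in Dusp-high knockout libraries. In Dusp-low libraries Il4ra stood at 466 and 485 CPM in control and 640, 787 and 461 CPM in knockout (1.17 ± 0.19). Of 20 alternative-activation genes the ectonucleotidases Nt5e (0.89) and Entpd1 (0.35) were also higher without overlap (3.44% of all genes), while Arg1 (-0.47 ± 0.83) and Retnla (-2.27 ± 0.59, under 2 CPM throughout) overlapped. Some further abundant genes were chosen after their values were seen, among them the chemokine receptor Ccr1 (223 ± 63.7 against 69.7 ± 14.9 CPM), the Toll-like receptor homologue Cd180 (108 ± 24.2 against 268 ± 57.9 CPM) and the inhibitory lectin Clec12a (259 ± 93.2 against 565 ± 83.7 CPM). The nearest Ccr1 values of the sets were 133 and 79.2 CPM.

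Trem2 lipid-associated macrophage genes had a median log2 change of 0.07 over 18 genes, with Lpl counted as lower, and lysosomal genes a median of -0.12 over 31, with none free of overlap (3.44% of all genes were higher and 2.21% lower without overlap). Proliferation genes had a median of -0.39 over 34 genes, with the replication helicase subunits Mcm3 (-0.58 ± 0.12) and Mcm5 (-0.63 ± 0.16) lower without overlap. Over all genes 2.21% were lower without overlap. That median was -0.86 in control and 0.02 in knockout libraries, and control library 5 was the lowest of all for Mki67 (46.8 CPM). Of 23 genes for cholesterol synthesis and uptake, Pmvk (0.88 ± 0.13) and Fdft1 (0.42 ± 0.16) were among the 3 higher without overlap (3.44% of all genes), and the median was 0.40. Of 27 targets of NF-kB, Cd40 was lower without overlap (-0.93 ± 0.15, beside 2.21% of all genes) and none was higher (3.44%), with a median of 0.36 that was 0.10 without knockout libraries 4 and 5.

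Markers of other cells differed between the sets as well. The calprotectin genes S100a8 and S100a9 and the receptor Cxcr2, typical of neutrophils, were counted as higher, 3 of 12 tested beside 2.0% of all genes. S100a9 stood at 111, 66.0, 135, 59.0 and 31.3 CPM in Dusp-high libraries and at 1.60, 13.3, 1.16, 0 and 0.13 CPM in Dusp-low libraries. The summed level of the neutrophil list was 165 to 703 CPM against 117 to 280 CPM, and 4 of its 16 genes, the defining genes Ly6g, Camp, Elane and Mpo, did not pass the filter. The mast cell and basophil list summed to 24.9 to 44.5 CPM against 4.31 to 9.24 CPM, with Hdc, Gata2 and Cma1 of 7 tested genes counted, beside 2.0% of all genes. Hdc ran from 9.78 to 29.1 CPM in Dusp-high and from 1.37 to 5.26 CPM in Dusp-low libraries.

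Fibroblast genes were higher in 19 of 20 by fitted change (median 1.20), yet only Postn did not overlap (3.44% of all genes were higher without overlap), and the list summed to 1323 to 5449 CPM against 926 to 1962 CPM. The lowest Dusp-high value was knockout library 1 and the highest knockout library 3. Of the keratinocyte list, Krt14 and Epcam of 6 tested genes were counted, at 4.54 CPM or less (2.0% of all genes were counted as higher). The melanoma and melanocyte list overlapped, at 52.9 to 107 against 57.6 to 94.7 CPM. Its pigment genes Mlana, Tyr, Slc45a2 and Oca2 were at 0 in 9 of 10 libraries and at 0.11 CPM or less in control library 1, Tyrp1 and Dct reached 0.40 and 0.74 CPM there, and Gpr143 was at 0 in all. T and NK cell genes summed to 131 to 297 against 93.2 to 318 CPM. The B and plasma cell list summed to 226 to 440 against 353 to 697 CPM, with 5 of 8 tested genes below 0 (median -0.50). Ighm was counted as lower (121 ± 46.2 against 292 ± 127 CPM) and 1 gene as higher (0.598% and 2.0% of all genes). That list's median was 0.37 without knockout libraries 4 and 5. All 4 tested eosinophil genes were below 0, and their list summed to 1.94 to 6.17 against 4.26 to 11.1 CPM. Heat shock genes, which tissue dissociation can induce, were above 0 in 13 of 13 (median 0.56), with Bag3 alone free of overlap (3.44% of all genes) and with control libraries 1 and 2 highest. The part of these cells and of handling in the differences above was not tested, and in bulk samples fewer cells of a type and less RNA per cell cannot be told apart.

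Measures of whole libraries were then compared between the sets. Genes detected and the share of counts in the top genes come from the gene counts in which the sets were seen. Because the sets were drawn from expression and not at random, the permutation p-values are given as a description. Reads that met no gene on the counted strand made up 5.15% ± 0.44 of reads in Dusp-high and 3.92% ± 0.23 in Dusp-low libraries (SD, n = 5 each). The values were 5.43%, 4.81%, 4.61%, 5.68% and 5.20% against 4.05%, 4.24%, 3.81%, 3.63% and 3.89%, so the sets did not overlap. By an exact two-sided permutation test over 252 arrangements p was 0.00794, the smallest that 5 against 5 allows, and 0.0556 after adjustment over the 7 measures compared. With the same 3 close pairs averaged as 1 library each it was 0.0571 (0.2 adjusted).

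Dusp-high libraries also detected more genes, 14639 ± 131 against 14244 ± 259 with at least 10 counts (exact p = 0.0238, adjusted 0.0741). Fewer of their reads met more than 1 gene, 1.95% ± 0.08 against 2.06% ± 0.04 (exact p = 0.0317, adjusted 0.0741). Unmapped reads made up 7.77% ± 0.36 against 7.31% ± 0.26 (exact p = 0.0714, adjusted 0.125). Total counts, the share on the counted strand and the share of counts in the top 50 genes gave adjusted permutation p-values of 0.603 each. No measure passed 0.05 after adjustment. Since genes detected and the share in the top 50 genes come from the counts in which the sets were seen, their p-values are no separate support for the sets. The part of these measures in the gene differences was not tested.

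**Figure D5:**
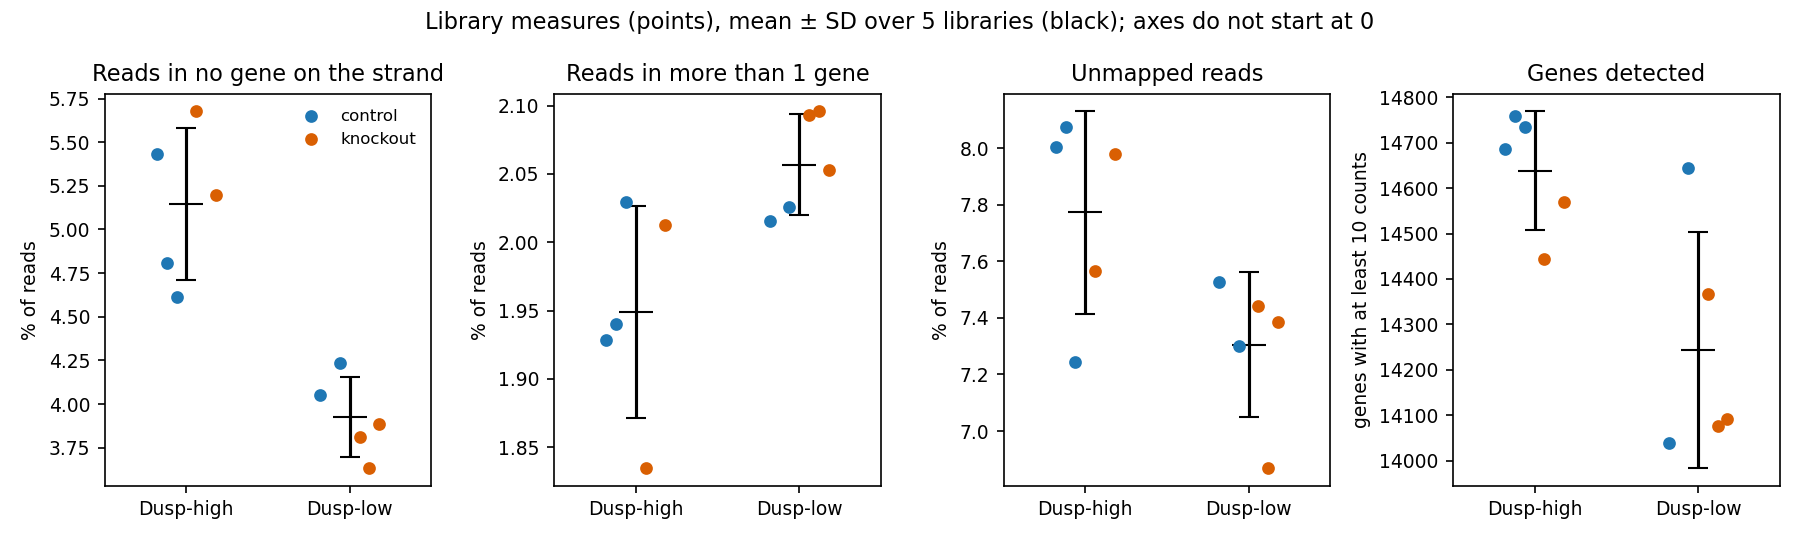
Shares of reads in no gene on the counted strand, in more than 1 gene and unmapped, and genes with at least 10 counts, in each library (control blue, knockout orange) with the mean ± SD of each set of 5 in black. In the first panel the Dusp-high libraries lie between 4.61% and 5.68% and the Dusp-low ones between 3.63% and 4.24%.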

How the data were processed

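Per the labels' protocols, F4/80+ cells were sorted from homogenised tumour tissue into a lysis reagent, RNA was enriched for polyadenylated transcripts and libraries were made with a directional kit. The authors deposited raw read counts per gene for each library. Per the submitters' processing notes STAR and GRCm39 were used, with no aligner version named, and which annotation was counted is not given in the sources used here. In these counts reads that fit several places are not given to any gene. Counts on the reverse strand were used, which held 96.2% to 96.5% of strand-assigned counts. Of 55359 gene identifiers, 52083 were matched to a symbol, and those without one held 0.145% of counts. Of the deposited whole-series files, 2 were not used here, since one has unnamed columns and the other no measurement.

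Genes were filtered by edgeR 4.0.16 filterByExpr (R 4.3.3, minimum count 10, genotype as the group) and scaled by TMM. CPM values were computed from the deposited counts with that scaling. The difference between sets was fitted by edgeR's quasi-likelihood model with genotype as covariate. The genotype contrast and the interaction were tested with Benjamini-Hochberg adjusted p under 0.05. Library measures were compared by exact permutation over libraries. Alternatives used DESeq2 1.42.0, limma 3.58.1, other filters, unstranded counts, other size thresholds and left-out libraries. The fits were tested on simulated data.

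The sets, gene lists and tests were chosen with earlier results of these data known. Named genes were the 3 marker genes, members of the ERK feedback and class I lists, the 12 largest counted changes in each direction at a mean of at least 5 CPM, and leading members of other lists. Further abundant genes and the glucocorticoid and clock lists were chosen after their values were seen. The numbers in the sample titles were not taken to pair the samples. Same-numbered control and knockout libraries deviated together (correlation over 0.1) in 2 of 5 pairs. The difference between sets enters these correlations too, so they cannot exclude pairing. Promoter sequences came from RefSeq. Some members of the lists are not reported here.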

Additional observations from a re-analysis of the deposited data

Results flagged for a closer look

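The values here stood apart from the other 4 libraries of their set by a large gap relative to the range of the set. Chance flags about 1 in 20 groups, and no cause was tested. Among single genes on the log2 CPM scale, knockout library 2 was high for Iigp1 at 7.75 among Dusp-low libraries, and knockout library 4 was low for B2m at 11.2 and for H2-Q4 at 8.03. Among Dusp-high libraries, knockout library 1 stood at 1.0 for Sectm1a, at 5.42 for Dusp7 and at 5.58 for H2-M3, and control library 5 was low for Ccnd1 at 6.15.

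For gene lists, scored as the mean log2 CPM of their tested members, control library 5 stood apart among Dusp-high libraries. Its score was 4.33 for ERK feedback genes, the lowest of the set, 8.11 for immediate early genes and 8.77 for Trem2 lipid-associated macrophage genes. Knockout library 1 scored 7.57 for glycolysis and 4.71 for colony-stimulating factor and growth receptors, and knockout library 3 scored 3.24 for erythroid and platelet genes. Among Dusp-low libraries knockout library 2 scored 5.86 for hypoxia genes and 5.75 for Myc and ribosome biogenesis genes. The 50 top genes held 22.1% of counts in knockout library 4, apart from the other Dusp-low libraries.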

How the results depend on the processing

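The counts of genes between sets depended on the overlap rule more than on the model. DESeq2 or limma fits, DESeq2 size factors, other filters, unstranded counts and no genotype covariate gave 229 to 365 genes counted as higher and 63 to 119 as lower. With the 3 close pairs summed the counts were 475 and 185, where fewer libraries had to stay apart. At 1.5-fold, 163 were lower, and at 4-fold 121 were higher and 13 lower. With overlap judged within either genotype, a setting added after seeing the data, they were 492 and 181. Leaving out 1 library, where again fewer had to stay apart, gave 302 to 605 higher and 88 to 144 lower. The median was then 1.02 to 1.24 for ERK feedback and -0.87 to -0.60 for class I genes. In settings also added after seeing the data, without knockout libraries 4 and 5, 169 genes were lower and the ERK feedback median was 0.83, and without control libraries 1 and 2, 226 genes were lower.

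With the title number as a replicate block, a fit that pairs libraries by number, 282 genes were counted as higher and 90 as lower, with medians of 0.89 and -0.70, and the genotype test called 55 genes. Same-numbered libraries correlated at 0.34, 0.08, -0.53, 0.18 and -0.22, and 1 of 5 correlated best with its own number. The genotype test called 820 genes by DESeq2, 8 with close pairs summed, 499 with the set as covariate and 62 to 267 with 1 library left out. The interaction test called 9 genes by DESeq2, 45 without a filter and 0 to 7 with 1 library left out. The causes were not tested. Of 1348 values of named genes under alternatives, 1342 counted as the same and 6 as moved. A value counted as the same where it shifted by less than the gene's spread between libraries. On the log2 scale that spread was 0.17 for Dusp6 but 2.34 for S100a8, so the rule is loose for widely spread genes. All alternatives also reuse the same libraries. The block gave Spred1 0.05, Rasa2 0.18 and Fosl1 3.71. It gave Ccnd1 -0.19, opposite in sign to the 0.19 of the main fit.

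The sets were found in the same values they are compared on, and 5 libraries a set limit the precision. Genes near the filter rest on few reads, and members of near-identical families are uncertain.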

Other observations

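Genes that glucocorticoids induce were higher in Dusp-high libraries, in a list added after the values were seen. Of 32 tested genes 31 had a fitted change above 0, 10 were higher without overlap (3.44% of all genes) and 7 were counted (2.0% of all genes), with a median log2 change of 0.91 (0.62 in control and 1.12 in knockout libraries). Fkbp5, a co-chaperone of the glucocorticoid receptor, stood at 276, 263, 95.7, 215 and 261 CPM in Dusp-high libraries and at 66.5, 71.7, 92.1, 74.1 and 75.6 CPM in Dusp-low libraries (log2 change 1.59 ± 0.25). Control library 5 lay just above the Dusp-low range at 92.1 CPM, and the other Dusp-high libraries were far above it. Klf9 stood at 17.7, 16.2, 24, 26 and 35.9 CPM against 7.74, 10.4, 9.05, 4.18 and 5.22 CPM (1.71). Tsc22d3, which encodes the anti-inflammatory protein GILZ, ran from 172 to 435 CPM against 54.4 to 168 CPM (1.22). The receptor gene Nr3c1 itself was at 84.3 ± 14.9 and 97.6 ± 15.1 CPM (SD, n = 5 each), with overlap. Without knockout libraries 4 and 5 the list median was 0.65.

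Circadian clock genes, also listed after the values were seen, were above 0 in 14 of 16 tested. Nr1d2, a repressor of the clock loop, stood at 39.8, 34.1, 33.0, 72.4 and 32.4 CPM in Dusp-high libraries and at 28.0, 26.7, 18.2, 12.3 and 14.1 CPM in Dusp-low libraries (log2 change 1.10). It and Cry2 (0.96) were higher without overlap, beside 3.44% of all genes. The period gene Per2 (1.56) and the output factor Dbp (1.41) overlapped, the activator Arntl was at -0.50 and Clock at 0.08. The list median was 0.94, and 0.72 without knockout libraries 4 and 5. Several of these genes respond to glucocorticoids as well as to the hour of the day, and the labels give neither the hour of collection nor any steroid exposure.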
